A study of Mus musculus with 12 samples.

Results

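Collagens are the triple-helical proteins of the extracellular matrix, and each is assembled from alpha chains encoded by separate genes. The genes described here are all rows of the count table whose symbol has the form Col, a type number, a and a chain number, which gave 44 of 24411 gene symbols. RNA was sequenced from primary colonic myofibroblasts, the contractile fibroblast-like cells of the colon wall, isolated from the distal colon of 16-week-old C57BL/6 mice. The 6 knockout libraries came from TNFR1-/- cells, which lack both alleles of the TNF receptor gene Tnfrsf1a. The 6 control libraries came from heterozygous TNFR1-/+ cells, so the controls also lacked 1 allele and no wild-type cells entered the comparison. All cells were at passage 6 to 8, untreated, and taken on day 5 after seeding in Matrigel, a gel rich in basement membrane proteins. The labels do not say which libraries came from separate mice or cultures, and p-values here speak only to the spread among the sequenced samples, part or all of which may be technical.

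Fibrillar collagens, with types I, III and V the main ones in soft tissue, form the load-bearing fibrils of connective tissue, and fibril-associated collagens decorate their surface. Type IV collagen builds the sheet-like network of basement membranes, type VI forms beaded microfilaments around cells, and the multiplexins, types XV and XVIII, sit in or next to basement membranes and carry endostatin-like fragments. In the colon, myofibroblasts and other fibroblasts lie under the epithelium and make much of this matrix. Prolyl and lysyl hydroxylases, chaperones, propeptide proteases and lysyl oxidases act on the chains before a stable fibril forms.

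The libraries fell into 4 sets that did not follow genotype alone, and values are given by set where the sets differed. Total counts were 6543013 to 9937008 in the knockout and 11890729 to 16458689 in the control libraries. Knockout 1 to 4, knockout 5 and 6, and control 1 to 5 were alike within each set (Spearman correlation over genes 0.989 to 0.998), while control 6 stood apart from the other controls (0.953 to 0.955) and correlated more with knockout 1 to 4 (0.969 to 0.976). Knockout 5 and 6 correlated with knockout 1 to 4 at 0.927 to 0.929. Tnfrsf1a itself measured 40.6 to 46.1 CPM (the count scaled to library size, with trimmed mean scaling factors) in the knockout and 54.9 to 81.3 in the control libraries (log2 difference -0.76, adjusted p = 9.24e-05), so transcript remained in the libraries labelled knockout. Of the fibroblast and myofibroblast markers, 11 of 11 passed the filter on low counts, and 5 rose and 4 fell, where 21.4% of all genes tested rose and 21.6% fell. Their summed level was 15384 to 17329 CPM in knockout 1 to 4, 10094 to 10312 in knockout 5 and 6, 6140 to 6615 in control 1 to 5 and 11410 in control 6. Of 11 epithelial markers, Epcam, Cdh1, Vil1, Cdx2, Lgr5 and Cldn7 never exceeded 5 counts, while the keratins Krt19 and Krt20, the only ones tested and not called, reached 169 and 116. The summed level of the epithelial list was 17.5 to 23.3 CPM in knockout 1 to 4, 14.9 to 15.6 in knockout 5 and 6, 7.49 to 9.38 in control 1 to 5 and 20.2 in control 6, and its part in the results was not tested. Bulk RNA cannot tell fewer cells of a type from less RNA per cell.

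Of the 44 collagen genes, 29 passed the filter and were tested for a difference between genotypes. They covered all classes except the transmembrane collagens, and their levels reached 13267 CPM (Col1a1 in control 6). Per kilobase of exon, the order in the control libraries was Col1a1 at 1583 ± 325 CPM per kb (SD, n = 6), Col1a2 at 1539 ± 58.0, Col5a2 at 613 ± 30.7, Col3a1 at 594 ± 9.76, Col4a1 at 343 ± 170, Col4a2 at 277 ± 134 and Col5a1 at 181 ± 75.3. The chains share libraries, and much of the wide SDs comes from control 6. Col4a1, Col4a2 and Col5a1 kept their mutual order, at 274, 223 and 151 in control 1 to 5 and 690, 550 and 335 in control 6. Col1a1 and Col1a2 did not, at 1455 and 1522 in control 1 to 5 and 2237 and 1630 in control 6. In control 6, unlike control 1 to 5, Col4a1 also lay above Col5a2, at 669, and above Col3a1, at 603. Col5a2 and Col3a1 had overlapping control ranges, 581 to 669 and 584 to 609. The next chain, Col6a1, was at 62.1 ± 16.1. In the knockout libraries Col3a1 moved from 4th to 7th place, at 202 ± 107 CPM per kb, below Col4a1 at 516 ± 198, Col5a2 at 446 ± 193, Col4a2 at 360 ± 163 and Col5a1 at 222 ± 120, with ranges that overlap, since each of these chains was lowest in knockout 5 and 6.

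**Figure D1:**
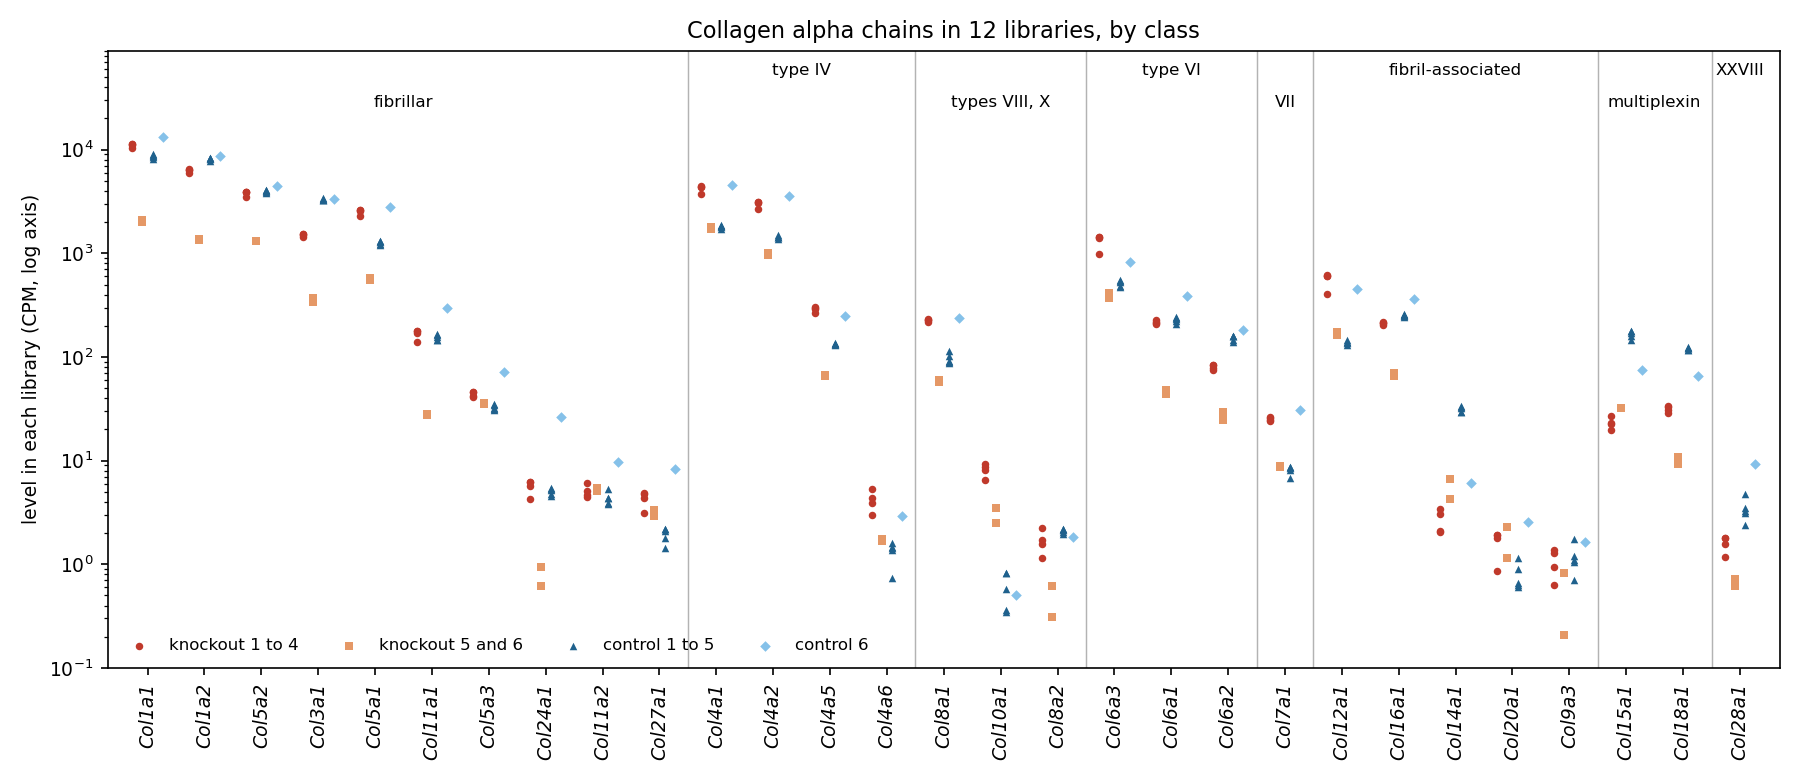
Level of each of the 29 tested collagen chains in every library (CPM, log axis), grouped by class and ordered by mean level within a class. Each point is 1 library. Col1a1 is the highest chain, Col3a1, Col15a1 and Col18a1 have all knockout points below all control points, and knockout 5 and 6 lie low for most fibrillar chains.

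All collagen chains together took 2.60% ± 1.28 (SD, n = 6) of the counts in the knockout and 3.33% ± 0.435 in the control libraries. By library set the share was 3.16% to 3.52% in knockout 1 to 4, 0.947% to 0.961% in knockout 5 and 6, 3.01% to 3.25% in control 1 to 5, and 4.20% in control 6 (95% Wilson interval 4.20% to 4.21%, counting error only). Collagens thus took a smaller share in knockout 5 and 6 than in each of the other 10 libraries, and the genotypes overlapped. The ribosomal RNA precursor Rn45s took 7.01% and 8.25% of counts in those same libraries and 0.351% to 2.1% in the others, and its part in the result was not tested.

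The make-up of the collagen counts also differed between the sets. Fibrillar chains made 83.2% to 83.4% of collagen counts in control 1 to 5, 75.0% in control 6, 70.7% to 72.8% in knockout 1 to 4 and 60.9% to 61.4% in knockout 5 and 6. Type IV chains made 10.9% to 11.2%, 19.0%, 20.5% to 21.3% and 29.9% to 30.1% in the same order of sets. Every knockout library therefore had a smaller fibrillar and a larger type IV share than every control library. The multiplexins made 0.901% to 0.967% of collagen counts in control 1 to 5, 0.317% in control 6, 0.450% to 0.453% in knockout 5 and 6 and 0.148% to 0.166% in knockout 1 to 4.

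In the comparison of the 6 knockout with the 6 control libraries, 3 collagen genes rose (Col10a1, Col12a1 and Col4a6) and 6 fell (Col14a1, Col15a1, Col18a1, Col28a1, Col3a1 and Col6a2) at an adjusted p under 0.05 in the edgeR quasi-likelihood test. Among all 12146 genes tested, 21.4% rose and 21.6% fell, 43% in all. Of the 29 collagens tested, 10.3% rose and 20.7% fell, 31% in all, so the collagens were not called more often than other genes. Their median log2 difference, knockout minus control, was -0.22, against 0.02 over all genes. In 1 collagen, Col10a1, all knockout libraries lay above all controls (10.6% of all genes tested), and in 7 they all lay below (12.5% of all genes tested, 23% for both directions): 5 of the 6 that fell, without Col14a1, together with Col1a2 and Col16a1. Without knockout 5 and 6, 31 collagens were tested, 12 rose and 8 fell, where 24.5% of all genes rose and 27.5% fell (52% called). Without control 6 as well, 16 rose and 8 fell, against 34.9% and 36.4% of all genes (71.3% called). The 12 and the 16 both include Col4a3 and Col4a4, which passed the filter only through libraries where they were high.

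**Figure D2:**
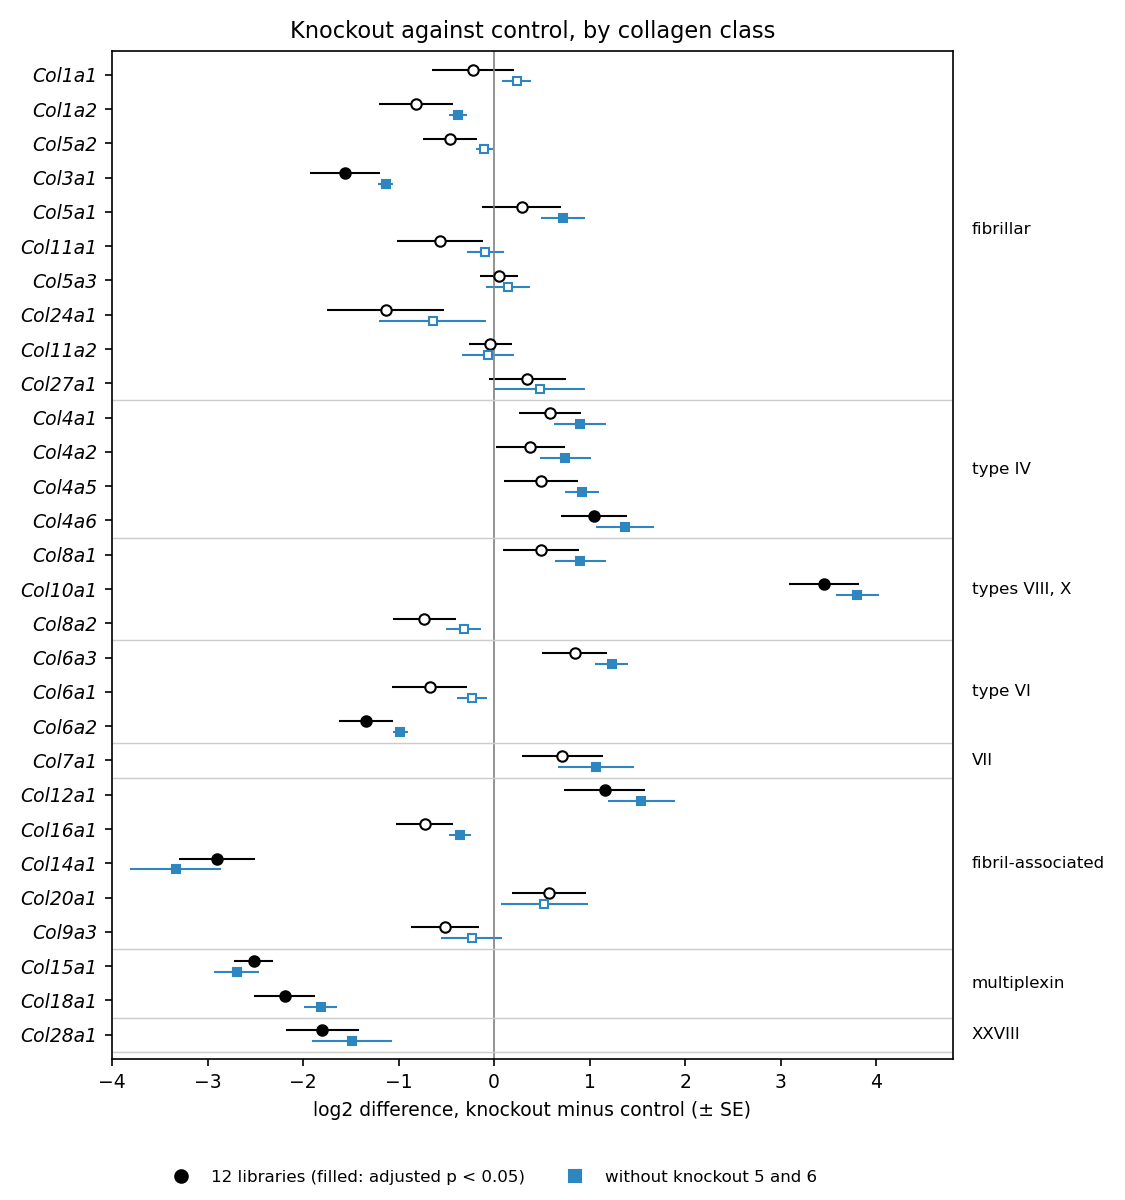
Log2 difference between knockout and control for each tested collagen, by class (points, with bars of 1 SE). Black circles use all 12 libraries, blue squares leave out knockout 5 and 6, and filled symbols have an adjusted p under 0.05. Both multiplexins lie below -2 in black, all 4 type IV chains lie to the right of 0 and are filled without knockout 5 and 6, and the bars of Col3a1 and Col6a2 are shorter without those libraries.

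Both multiplexin genes fell. Col15a1 encodes the chain of type XV collagen, which links basement membranes to the underlying fibrils. Its level was 19.9 CPM in the lowest, 25.0 in the median and 32.3 in the highest knockout library, and 74.2, 164 and 177 in the control libraries. The groups did not overlap, and control 6 was the lowest control. The log2 difference was -2.52 (SE 0.21, adjusted p = 5.23e-06), and the means were 26.2 ± 5.18 and 150.4 ± 39.2 CPM (SD, n = 6). The nearest pair of sets, knockout 5 and 6 against control 6, still differed 2.30-fold.

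Col18a1, the chain of type XVIII collagen and the source of endostatin, was at 9.34, 30.01 and 34.0 CPM in the lowest, median and highest knockout library and at 65.2, 120 and 126 in the controls. Here too every knockout library was below every control. The log2 difference was -2.19 (SE 0.32, adjusted p = 0.000219). Both genes kept an adjusted p under 0.05 in each of the 12 fits that left out 1 library. The ratio of Col15a1 to Col18a1 counts was 0.689 to 0.793 in knockout 1 to 4, 2.98 to 3.44 in knockout 5 and 6, 1.24 to 1.45 in control 1 to 5 and 1.14 in control 6. The knockout sets thus lay on either side of the controls, and the mean log2 ratio did not pass the test between genotypes (difference -0.15, exact two-sided permutation p = 0.706).

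**Figure D3:**
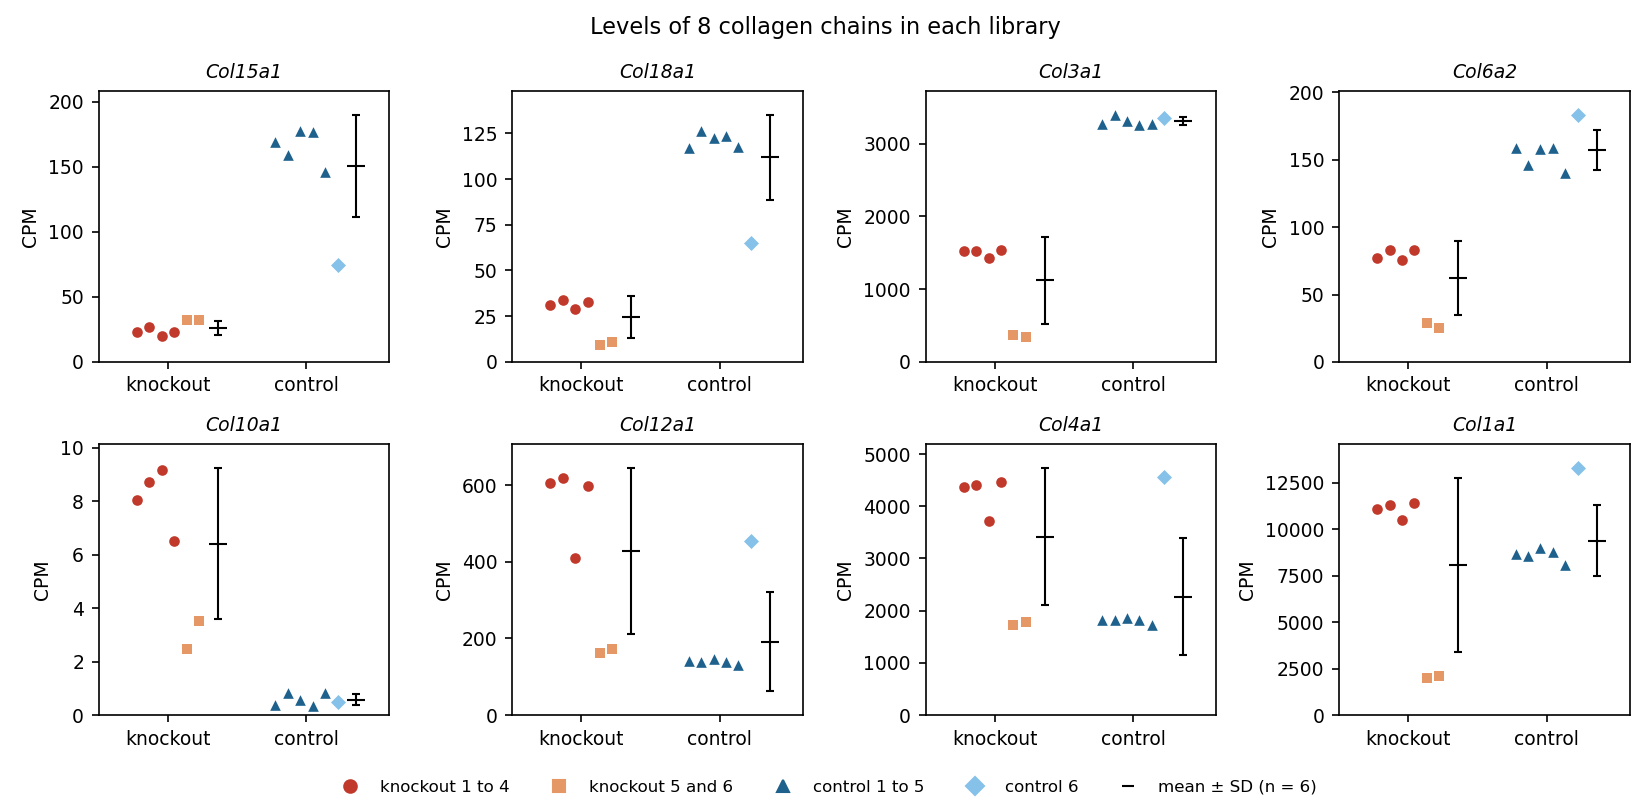
Level (CPM) of 8 chains in each library, with the mean and SD of each genotype (n = 6). Symbols mark the 4 library sets. In the top row (Col15a1, Col18a1, Col3a1, Col6a2) all knockout libraries lie below all controls; in the bottom row Col10a1 lies above all controls, while Col12a1, Col4a1 and Col1a1 overlap because knockout 5 and 6 are low or control 6 is high.

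Promoter sequence is shown for 3 of the chains whose groups did not overlap: Col15a1 and Col10a1, which had the smallest adjusted p among the chains that fell and rose, and Col3a1, the most abundant chain that fell. Each window is the 250 bases before the RefSeq transcript start on GRCm38.p6, plus strand, at chr4:47207762-47208011 for Col15a1, chr10:34389731-34389980 for Col10a1 and chr1:45311288-45311537 for Col3a1. Capitals mark the TATA box letters TATAAA.
Col15a1: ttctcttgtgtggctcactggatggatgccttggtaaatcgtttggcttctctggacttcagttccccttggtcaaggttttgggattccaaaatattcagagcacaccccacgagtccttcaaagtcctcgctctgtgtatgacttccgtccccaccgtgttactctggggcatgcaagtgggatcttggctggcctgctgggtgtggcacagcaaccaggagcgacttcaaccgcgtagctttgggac
Col10a1: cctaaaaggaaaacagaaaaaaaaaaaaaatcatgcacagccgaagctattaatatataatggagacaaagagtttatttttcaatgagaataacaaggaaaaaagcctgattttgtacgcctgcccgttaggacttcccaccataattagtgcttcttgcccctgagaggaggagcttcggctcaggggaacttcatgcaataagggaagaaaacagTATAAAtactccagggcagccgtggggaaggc
Col3a1: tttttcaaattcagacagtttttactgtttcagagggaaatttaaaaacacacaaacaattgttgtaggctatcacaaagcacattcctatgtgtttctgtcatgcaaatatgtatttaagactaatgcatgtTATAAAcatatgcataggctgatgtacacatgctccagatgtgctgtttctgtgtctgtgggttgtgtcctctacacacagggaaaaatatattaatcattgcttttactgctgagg

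Each window was searched on both strands for the TATA box letters TATAAA, the CCAAT box, the GC box letters GGGCGG and the NF-kB consensus, the binding motif of the transcription factor that acts downstream of TNF receptors. The Col10a1 window held TATAAA with its first base 32 bases before the start, the Col3a1 window held it 117 bases before the start, and the Col15a1 window held none of the 4 motifs. GC content was 53.6% for Col15a1, 41.6% for Col10a1 and 35.2% for Col3a1. Of the 44 symbols, 35 had an entry in the RefSeq promoter table, with 38 windows. TATAAA was in 5 of these 38 windows (13.2%, against 12.4% of all 32851 windows of this length), CCAAT in 13 (34.2% against 33.8%), GGGCGG in 22 (57.9% against 32.7%) and the NF-kB consensus in 6 (15.8% against 7.25%). Those 6 windows belong to Col27a1, Col4a2, Col6a2, Col6a4, Col9a1 and Col9a2. Only Col27a1, Col4a2 and Col6a2 of these were tested, and Col6a2 alone was called, as lower. Col6a2 and Col9a1 each have another window without the NF-kB consensus. A match is a description of the letters only.

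Among the fibrillar collagens, 10 of 11 chains were tested, and Col3a1 alone was called. Col3a1 encodes the chain of type III collagen, the homotrimer of pliable tissues such as the gut wall. It measured 338, 1476 and 1537 CPM in the lowest, median and highest knockout library and 3251, 3291 and 3390 in the controls. The control libraries, control 6 included, were within a narrow band, and the knockout libraries lay below it in both sets. The log2 difference was -1.56 (SE 0.37, adjusted p = 0.00459), with means of 1121 ± 595 and 3307 ± 54.3 CPM (SD, n = 6). Without knockout 5 and 6 it was -1.14 (adjusted p = 2.42e-06).

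The type I chains did not pass the test over the 12 libraries. Col1a1, the major chain of type I collagen, was at 10467 to 11420 CPM in knockout 1 to 4, 1993 to 2102 in knockout 5 and 6, 8073 to 8991 in control 1 to 5 and 13267 in control 6. Knockout 1 to 4 thus lay above control 1 to 5 and below control 6. The log2 difference was -0.22 (SE 0.43, adjusted p = 0.707), and it was 0.24 without knockout 5 and 6 (adjusted p = 0.204). Without control 6 as well, Col1a1 rose by 0.37 (adjusted p = 5.87e-07), where 34.9% of all genes rose. Col1a2, the partner chain, was at 1358, 6163 and 6513 CPM in the lowest, median and highest knockout library and 7781, 8254 and 8715 in the controls. Its groups did not overlap, yet the log2 difference of -0.82 (SE 0.38) had an adjusted p of 0.103. Without knockout 5 and 6 Col1a2 fell by 0.38 on the log2 scale (adjusted p = 0.00641).

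Type V collagen is a minor fibril component that helps set fibril diameter. Col5a1 was at 2301 to 2614 CPM in knockout 1 to 4, 559 to 572 in knockout 5 and 6, 1205 to 1319 in control 1 to 5 and 2814 in control 6, with a log2 difference of 0.29 (SE 0.41, adjusted p = 0.599). Col5a2 was at 3463 to 3893, 1308 to 1320, 3850 to 4075 and 4435 CPM in the same sets, with a log2 difference of -0.46 (SE 0.28, adjusted p = 0.206). Without knockout 5 and 6 Col5a1 rose (log2 difference 0.72, adjusted p = 0.0231), while Col5a2 differed by -0.10 (adjusted p = 0.343). Col11a1, a chain of the related type XI collagen, was at 140 to 180 CPM in knockout 1 to 4, 27.5 to 27.9 in knockout 5 and 6, 145 to 165 in control 1 to 5 and 295 in control 6 (log2 difference -0.56, SE 0.45, adjusted p = 0.329). The 4 lesser fibrillar chains, Col5a3, Col11a2, Col24a1 and Col27a1, averaged 3.0 to 40.9 CPM in each genotype, and none passed the test.

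Ratios of chains within a library do not depend on library scaling, and 8 were compared. Ratios of other gene pairs were not tested, and 43% of all single genes tested were called. How often an arbitrary pair would pass is therefore not known. Col1a1 over Col3a1 was 7.30 to 7.43 in knockout 1 to 4, 5.35 to 6.23 in knockout 5 and 6, 2.47 to 2.72 in control 1 to 5 and 3.96 in control 6. Every knockout library was above every control (log2 difference 1.28, exact two-sided permutation p = 0.00216, the smallest for 6 against 6 libraries, and 0.00577 after Benjamini-Hochberg adjustment over the 8 ratios). The permutation treats the 12 libraries as exchangeable although they fell into 4 sets, and no ratio was tested on set sums. Col1a1 over Col1a2, whose proteins join in a fixed proportion in the type I heterotrimer, was 1.74 to 1.76, 1.47 to 1.53, 1.04 to 1.080 and 1.52 in the same sets (log2 difference 0.57, exact permutation p = 0.00433, adjusted 0.00866). Control 6 lay inside the range of the knockout libraries. Col5a1 over Col5a2 was 0.657 to 0.674, 0.423 to 0.437, 0.313 to 0.324 and 0.634, again with control 6 inside the knockout range (log2 difference 0.69, exact permutation p = 0.0173, adjusted 0.0198).

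**Figure D4:**
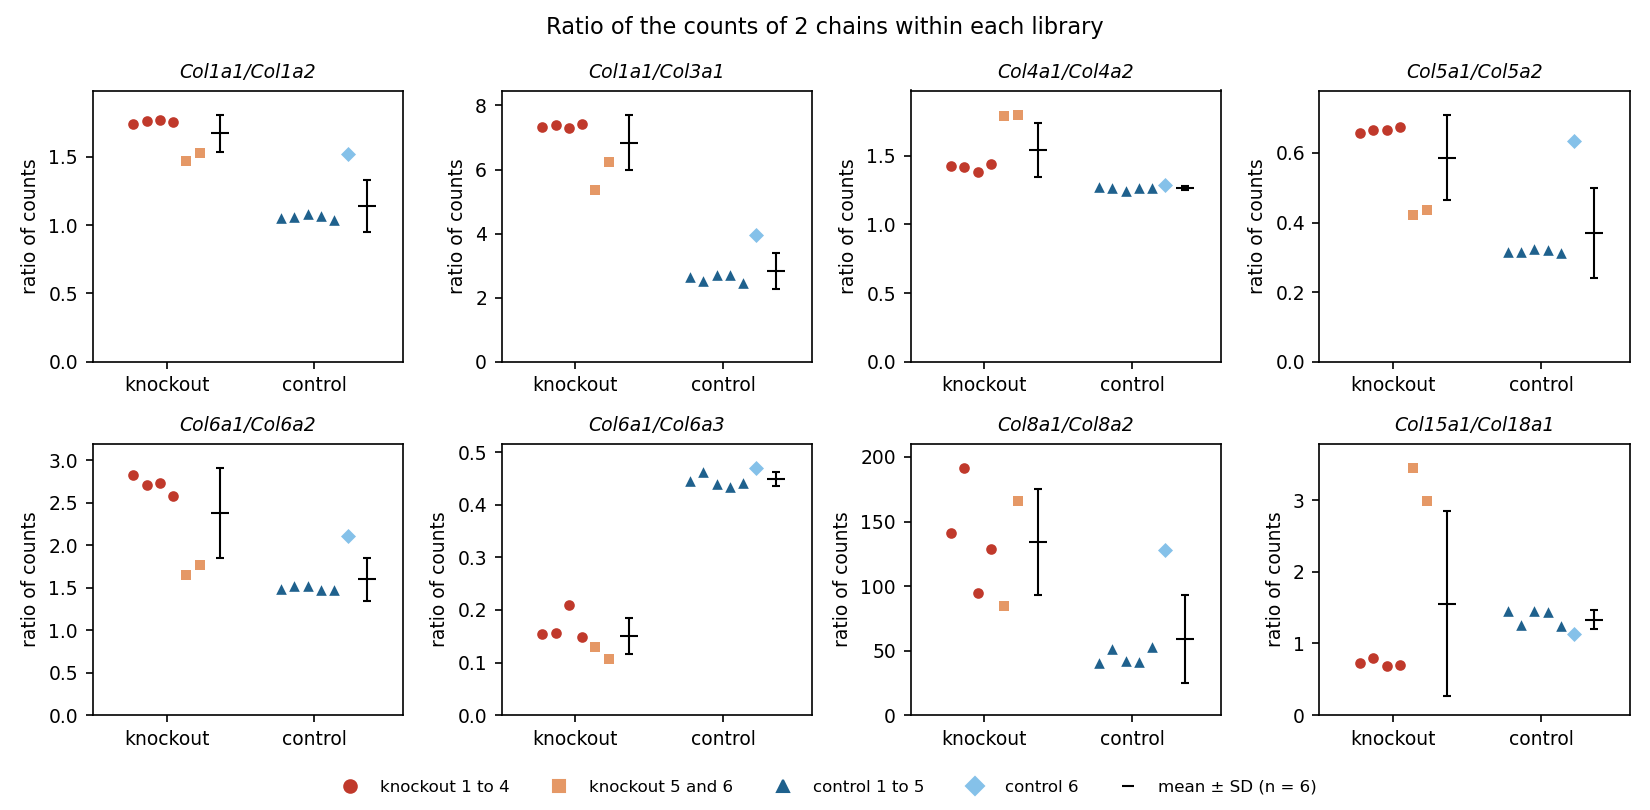
Ratio of the counts of 2 collagen chains in each library, with the mean and SD of each genotype (n = 6); symbols mark the library sets. Col1a1/Col3a1, Col4a1/Col4a2 and Col6a1/Col6a3 do not overlap between genotypes, control 6 lies within the knockout range for Col1a1/Col1a2, Col5a1/Col5a2, Col6a1/Col6a2 and Col8a1/Col8a2, and Col15a1/Col18a1 splits the knockout libraries.

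Of the 6 type IV collagen genes, 4 were tested, and Col4a6 rose. Col4a1 and Col4a2 encode the chains of the common basement membrane heterotrimer. Col4a1 was at 3723 to 4467 CPM in knockout 1 to 4, 1728 to 1789 in knockout 5 and 6, 1734 to 1861 in control 1 to 5 and 4566 in control 6. Col4a2 was at 2699 to 3118, 968 to 997, 1372 to 1494 and 3544 CPM. For both, knockout 1 to 4 lay above control 1 to 5 but below control 6, and the log2 differences were 0.59 (SE 0.33, adjusted p = 0.161) and 0.38 (SE 0.36, adjusted p = 0.412). Their ratio was 1.38 to 1.44 in knockout 1 to 4, 1.79 in both of knockout 5 and 6, 1.25 to 1.27 in control 1 to 5 and 1.29 in control 6, with no overlap between genotypes (log2 difference 0.27, exact permutation p = 0.00216, adjusted 0.00577).

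Col4a5 and Col4a6, which join in a trimer found in smooth muscle basement membranes among others, differed in level. Col4a5 was at 264 to 303 CPM in knockout 1 to 4, 65.7 to 66.8 in knockout 5 and 6, 130 to 136 in control 1 to 5 and 248 in control 6 (log2 difference 0.49, SE 0.39, adjusted p = 0.322). Col4a6 was at 1.66, 3.44 and 5.32 CPM in the lowest, median and highest knockout library and 0.734, 1.45 and 2.93 in the controls. Its groups overlapped through control 6, the highest control, and the log2 difference was 1.05 (SE 0.35, adjusted p = 0.0284). The call was lost when knockout 1, 2 or 4 or any of control 1 to 5 was left out (adjusted p 0.00608 to 0.0696 over the 12 fits).

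Without knockout 5 and 6 the 4 type IV genes tested over 12 libraries rose, where 24.5% of all genes tested rose. Col4a6 differed by 1.37 (adjusted p = 0.00332). Col4a3 and Col4a4 passed the filter in that fit only through libraries where they were high, and were called higher. No class count or median is therefore drawn from them. Col4a1 then differed by 0.90 (adjusted p = 0.0166), Col4a2 by 0.75 (adjusted p = 0.034) and Col4a5 by 0.92 (adjusted p = 0.00151). Col4a3 and Col4a4, the chains best known from the kidney glomerulus, had 11 to 38 counts in knockout 1 to 4 and control 6 and at most 10 in the other libraries. Of 6 smooth muscle markers, all tested, 4 rose and none fell over the 12 libraries, where 21.4% of all genes rose and 21.6% fell. Their summed level was 1828 to 1849 CPM in knockout 1 to 4, 790 to 810 in knockout 5 and 6, 442 to 524 in control 1 to 5 and 1008 in control 6. Like the type IV chains, this sum was higher in knockout 1 to 4 and in control 6 than in control 1 to 5. In knockout 5 and 6 the sum was also above control 1 to 5, as was Col4a6, while Col4a2 and Col4a5 were below and Col4a1 overlapped. The value of the sum in control 6 was below knockout 1 to 4, as for Col4a5 and Col4a6 but not Col4a1 and Col4a2. The part of these markers in the result was not tested.

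Among the short-chain collagens, which form hexagonal networks, Col10a1 rose. Type X collagen is best known as a product of hypertrophic cartilage. Col10a1 was at 2.49, 7.27 and 9.18 CPM in the lowest, median and highest knockout library (24 to 77 counts) and at 0.350, 0.544 and 0.828 CPM in the controls (5 to 11 counts). Every knockout library was above every control, with knockout 5 and 6 below knockout 1 to 4, and the gene passed the filter only through its knockout counts. The log2 difference was 3.46 (SE 0.37, adjusted p = 2.95e-05), and the nearest pair of sets differed 5.16-fold. In the fit with no filter on low counts the log2 difference was 3.44 (SE 0.36, adjusted p = 2.43e-05). Of 7 chondrocyte and bone markers 1 was tested and it was not called; Acan, Matn1, Bglap and Ibsp did not exceed 5 counts, Comp did not exceed 7, and Sp7 had none. The summed level of these markers was 6.80 to 8.98 CPM in knockout 1 to 4, 16.9 to 20.6 in knockout 5 and 6, 12.1 to 13.4 in control 1 to 5 and 9.67 in control 6. Nearly all of it was Sox9, a gene not limited to cartilage, and the part of these markers in the result was not tested.

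Type VIII collagen is a network collagen of vessel walls and of basement membranes such as that of the corneal endothelium. Col8a1 was at 216 to 233 CPM in knockout 1 to 4, 57.2 to 60.0 in knockout 5 and 6, 86.7 to 115 in control 1 to 5 and 240 in control 6 (log2 difference 0.49, SE 0.40, adjusted p = 0.333), and it rose without knockout 5 and 6 (0.90, adjusted p = 0.0146). Its partner Col8a2 averaged 1.26 ± 0.710 CPM in the knockout and 2.05 ± 0.135 in the control libraries (SD, n = 6; log2 difference -0.73, SE 0.33, adjusted p = 0.0882). Col8a1 over Col8a2 was higher in the knockout (log2 difference 1.26, exact permutation p = 0.00649, adjusted 0.0104), with control 6, at 127.8, inside the knockout range of 84.8 to 191.

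The type VI chains differed in direction. The classical trimer holds the chains of Col6a1, Col6a2 and Col6a3. Col6a2 was at 24.8, 76.5 and 83.0 CPM in the lowest, median and highest knockout library and 140, 158 and 183 in the controls. It fell without overlap (log2 difference -1.34, SE 0.28, adjusted p = 0.00232), and knockout 5 and 6 were the lowest. Col6a1 was at 207 to 225 CPM in knockout 1 to 4, 44.0 to 48.2 in knockout 5 and 6, 207 to 241 in control 1 to 5 and 387 in control 6 (log2 difference -0.67, SE 0.39, adjusted p = 0.184).

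Col6a3, the long chain of the trimer and the source of endotrophin, was at 991 to 1448 CPM in knockout 1 to 4, 372 to 410 in knockout 5 and 6, 468 to 548 in control 1 to 5 and 825 in control 6. It had a positive log2 difference of 0.84 (SE 0.34, adjusted p = 0.060), and without knockout 5 and 6 it rose (1.23, adjusted p = 0.000205). Col6a1 over Col6a3 was 0.148 to 0.209 in knockout 1 to 4, 0.107 to 0.130 in knockout 5 and 6, 0.434 to 0.462 in control 1 to 5 and 0.469 in control 6. All knockout libraries were below all controls, and control 6 was close to the other controls (log2 difference -1.60, exact permutation p = 0.00216, adjusted 0.00577). Col6a1 over Col6a2 was higher in the knockout (log2 difference 0.55, exact permutation p = 0.0173, adjusted 0.0198), with control 6 inside the knockout range.

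Among the fibril-associated collagens, Col14a1 fell and Col12a1 rose. Type XII and type XIV collagens are structural relatives that bind fibril surfaces. Col14a1 was at 2.06, 3.24 and 6.64 CPM in the lowest, median and highest knockout library and 6.11, 30.8 and 33.4 in the controls. The groups overlapped at a single point: control 6 lay between knockout 5 and 6, while control 1 to 5 were at 29.2 or more. The log2 difference was -2.90 (SE 0.40, adjusted p = 0.000152). Of 6 adipocyte markers 3 were tested, and 1 rose and 1 fell (21.4% and 21.6% of all genes tested). The adipocyte list followed a like order. Its summed level was 26.6 to 32.8 CPM in the knockout libraries, 175 to 189 in control 1 to 5 and 47.7 in control 6. Most of that sum was Lpl, while Adipoq, Plin1 and Cidec did not exceed 5 counts, and the part of these markers in the result was not tested.

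Col12a1 was at 409 to 619 CPM in knockout 1 to 4, 163 to 174 in knockout 5 and 6, 132 to 146 in control 1 to 5 and 455 in control 6. Control 6 thus lay among the knockout libraries, and the log2 difference was 1.16 (SE 0.43, adjusted p = 0.0427). The call was lost without any single library of knockout 1 to 4 or control 1 to 5, and kept without knockout 5, knockout 6 or control 6 (adjusted p 0.00255 to 0.0885 over the 12 fits). Col16a1, another fibril-associated chain, was at 65.6, 208 and 218 CPM in the knockout and 246, 255 and 365 in the control libraries (lowest, median and highest). Its groups did not overlap, and the log2 difference was -0.73 (SE 0.30, adjusted p = 0.0661), or -0.36 without knockout 5 and 6 (adjusted p = 0.021). Col9a3 and Col20a1, each averaging under 2 CPM in both genotypes, were not called.

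The remaining tested chains were Col7a1 and Col28a1. Col7a1, whose product forms the anchoring fibrils under epithelia, was at 24.0 to 26.3 CPM in knockout 1 to 4, 8.59 to 8.82 in knockout 5 and 6, 6.74 to 8.66 in control 1 to 5 and 30.9 in control 6 (log2 difference 0.71, SE 0.43, adjusted p = 0.194), and it rose without knockout 5 and 6 (1.07, adjusted p = 0.0414). Col28a1, a chain with von Willebrand factor A domains like those of type VI, was at 0.623, 1.38 and 1.80 CPM in the lowest, median and highest knockout library and 2.37, 3.39 and 9.35 in the controls. Its groups did not overlap, and it fell (log2 difference -1.80, SE 0.38, adjusted p = 0.00248), with 6 to 17 counts per knockout library.

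The 4 pairings of knockout and control sets were also placed side by side. Col10a1 was higher and Col3a1, Col6a2, Col14a1, Col15a1, Col18a1 and Col28a1 were lower in all 4 pairings. So were Col1a2, Col5a2, Col6a1, Col8a2, Col9a3 and Col16a1, which did not pass the test over 12 libraries. The nearest pair of sets differed 1.91-fold to 5.16-fold for the called chains other than Col14a1. For Col14a1 it differed 1.12-fold, and for the chains not called 1.05-fold to 1.28-fold. Over all genes tested, 43.6% had 1 direction in all 4 pairings. The pairings share sets and are not independent of each other. The median over the tested collagens in knockout 1 to 4 was 0.21 relative to control 1 to 5 and -0.65 relative to control 6. In knockout 5 and 6 it was -1.17 and -1.85 relative to the same controls, where the medians over all genes stayed between -0.02 and 0.01.

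**Figure D5:**
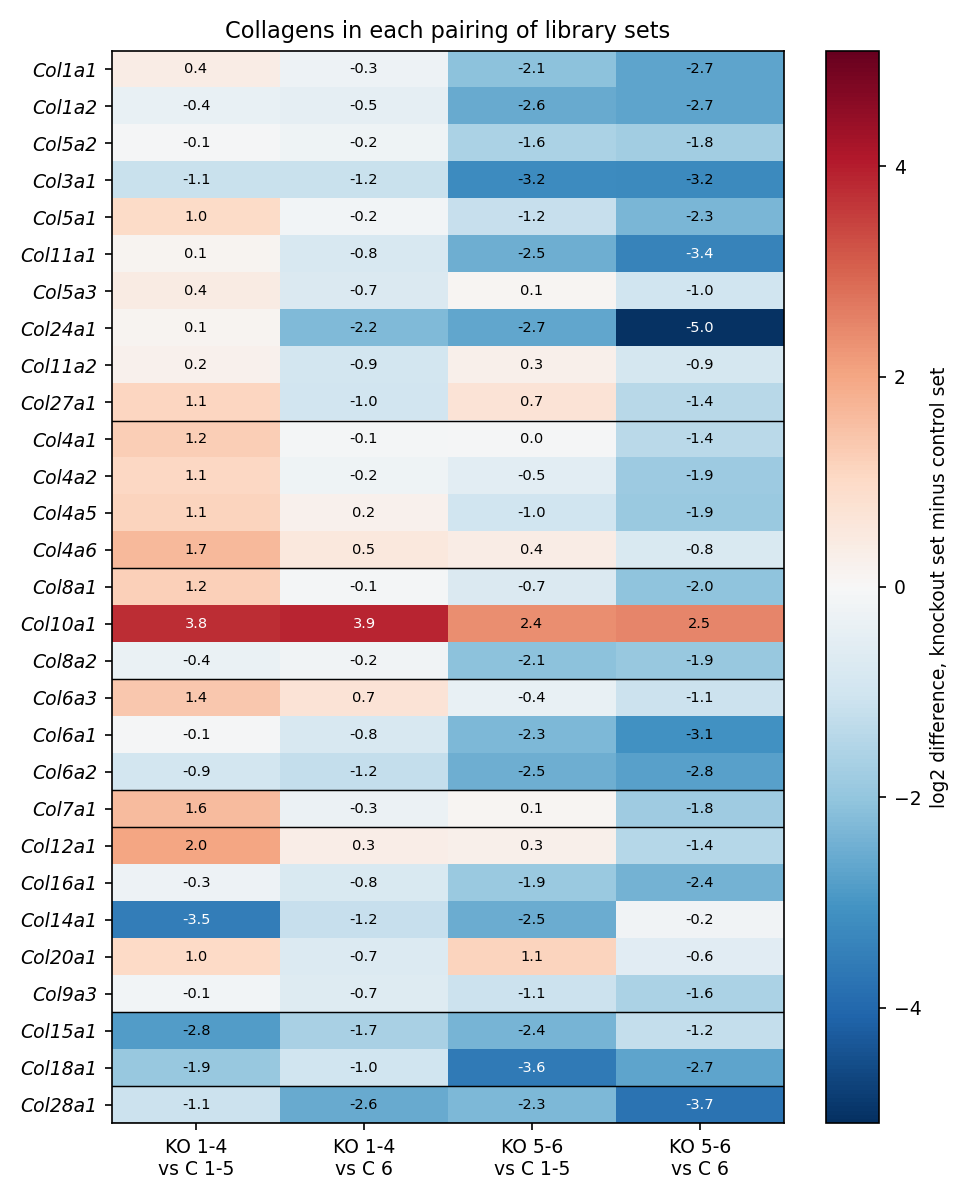
Log2 difference of each tested collagen in the 4 pairings of knockout (KO) and control (C) library sets, from CPM of the summed counts; black lines separate classes. Type IV chains are red for knockout 1 to 4 against control 1 to 5 and blue for knockout 5 and 6 against control 6, Col10a1 is red in every column, and Col3a1, Col6a2, Col15a1, Col18a1 and Col28a1 are blue in every column.

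The other 15 collagen genes did not pass the filter. Col9a1 had 0 counts in every library, which at 3 counts allows a level of up to 0.191 to 0.475 CPM depending on the library. Col13a1, Col17a1, Col23a1 and Col25a1, the transmembrane collagens, had at most 10 counts, and so did Col6a5, Col6a6, Col9a2, Col19a1, Col22a1 and Col26a1, while Col6a4 reached 11. Col2a1, the chain of cartilage type II collagen, had 51 and 36 counts in knockout 5 and 6 and at most 6 in any other library.

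Several collagen genes lie next to each other in the genome, and 8 neighbouring pairs were found among the protein-coding genes of the GENCODE annotation. Col4a1 and Col4a2, head to head on chromosome 8, and Col4a6 and Col4a5, head to head on the X chromosome, each had log2 differences of the same sign. Col3a1 and Col5a2, tail to tail on chromosome 1, had log2 differences of -1.56 and -0.46, and Col6a2 and Col6a1, on the same strand of chromosome 10, of -1.34 and -0.67. In both of these pairs 1 member fell and the other did not pass the test.

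Genes that act on collagen after transcription were described from 6 lists with 75 genes, of which 63 were tested, 7 rose and 17 fell (21.4% and 21.6% of all genes tested). Of 18 tested genes for chain hydroxylation, glycosylation and folding, 8 fell and none rose, with a median log2 difference of -0.45. Relative to control 1 to 5 the median was -0.14 in knockout 1 to 4 and -1.19 in knockout 5 and 6. Relative to control 6 it was -0.20 and -1.16, so most of the pooled median came from knockout 5 and 6. P4hb, the shared subunit of prolyl 4-hydroxylase, averaged 1137 ± 310 CPM in the knockout and 2507 ± 370 in the control libraries (SD, n = 6; log2 difference -1.14, SE 0.20, adjusted p = 0.000625). P4ha2, a catalytic subunit, fell by 1.45 (SE 0.30, adjusted p = 0.00208), and Ppib, the prolyl isomerase cyclophilin B, fell by 1.35 (SE 0.19, adjusted p = 0.000147) on the log2 scale. For all 3 every knockout library was below every control, and Plod1, P3h2, P3h3, Crtap and Serpinh1 fell as well.

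In secretion, 3 of 8 tested genes were called (43% of all genes tested were). The list median relative to control 1 to 5 was 0.22 in knockout 1 to 4 and -0.58 in knockout 5 and 6. Relative to control 6 it was 0.05 and -0.91. Mia3, which loads collagen into large transport carriers, had a log2 difference of -0.94 (SE 0.17, adjusted p = 0.000831), while the trafficking complex gene Trappc2 had 0.91 (SE 0.16, adjusted p = 0.000664) and Klhl12, an adaptor for carrier assembly, 0.26 (SE 0.08, adjusted p = 0.0165). Of 12 tested genes for propeptide processing and crosslinking, 2 rose and 2 fell (21.4% and 21.6% of all genes tested). Here the list median relative to control 1 to 5 was 0.67 in knockout 1 to 4 and -0.77 in knockout 5 and 6. Relative to control 6 it was -0.38 and -1.75. Adamts2, the protease that removes the amino-terminal propeptide of fibrillar collagens, fell by 1.77 on the log2 scale (SE 0.23, adjusted p = 9.52e-05), and its relative Adamts14 fell too. Tll1, a protease of the family that removes the carboxy-terminal propeptide, rose by 1.75 (SE 0.34, adjusted p = 0.00143) and Pcolce2, an enhancer of that cleavage, by 1.77 (SE 0.36, adjusted p = 0.00194). Lox and Loxl2, which crosslink fibrils, did not pass the test.

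Among 8 tested receptor and uptake genes, Itga1, Itgb1 and Ddr1 rose and Itga2 fell, where 43% of all genes tested were called. This list had a median of 0.76 in knockout 1 to 4 and -0.49 in knockout 5 and 6 relative to control 1 to 5. Relative to control 6 the medians were -0.41 and -1.54. Ddr1, a receptor tyrosine kinase for collagen, had a log2 difference of 1.04 (SE 0.21, adjusted p = 0.00205), Itgb1, the shared beta subunit of the collagen-binding integrins, 0.81 (SE 0.20, adjusted p = 0.00584) and Itga2, a collagen-binding alpha subunit, -1.02 (SE 0.18, adjusted p = 0.000711). Of 4 tested collagenases and gelatinases (21.6% of all genes tested fell), Mmp2 fell by 1.64 on the log2 scale (SE 0.22, adjusted p = 0.000112). Its mean went from 509 ± 46.9 CPM in the control to 163 ± 55.1 CPM in the knockout libraries. Mmp9 fell too (-2.74, SE 0.57, adjusted p = 0.00223), from 2.59 ± 1.00 to 0.359 ± 0.409 CPM. It passed the filter only through the control libraries and in 7 of the 12 fits that left out 1 library, and with no filter the log2 difference was -2.75 (SE 0.57, adjusted p = 0.00257). Macrophage and leukocyte markers were also lower in the knockout, where 7 of 10 fell (21.6% of all genes tested fell). Their summed level was 39.9 to 61.4 CPM against 84.9 to 136 in the controls, and their part in the Mmp9 result was not tested.

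Of 13 tested fibril-binding proteoglycans and glycoproteins, 3 fell and none rose (21.6% and 21.4% of all genes tested). The median of this list relative to control 1 to 5 was 0.45 in knockout 1 to 4 and -1.31 in knockout 5 and 6. Relative to control 6 it was -0.69 and -2.12. Decorin (Dcn), which binds type I fibrils, averaged 191 ± 27.6 CPM in the knockout and 621 ± 59.9 in the control libraries (log2 difference -1.70, SE 0.12, adjusted p = 1.5e-06). Lumican (Lum), which limits fibril thickness, fell by 1.85 on the log2 scale (SE 0.20, adjusted p = 2.77e-05), and thrombospondin 2 (Thbs2) fell by 0.82 (SE 0.25, adjusted p = 0.0172). Every knockout library was below every control for all 3. Bgn, Fn1, Sparc and Postn, other abundant matrix genes of this list, did not pass the test.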

How the data were processed

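The 12 libraries of polyadenylated RNA, 6 per genotype, were made with a strand-marking dUTP protocol, per the labels' protocols. What the authors deposited are expected counts by gene symbol, which RSEM estimates and which may be fractional. The submitters' processing notes list Bowtie2 2.1.0 and RSEM 1.2.15 beside a human build, although the rows are mouse symbols, so the genome behind the counts is uncertain. Which annotation was used, and whether counting used strand, is not given in the sources used here. All 528 values of the 44 collagens were whole numbers.

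Counts were rounded and tested in R 4.3.3 with edgeR 4.0.16 (quasi-likelihood), with genotype as the only term, over all 12146 genes that passed filterByExpr (minimum count 10, minimum total 15). Scaling was by TMM, Benjamini-Hochberg adjustment was over all genes tested, and the threshold was 0.05. Log2 differences are knockout minus control, and SE is the log2 difference divided by the root of the F statistic. CPM per kb uses merged exon length from the GENCODE mouse annotation on GRCm38, which may differ from the models the authors counted. Set comparisons use summed counts with 0.5 added. Chain ratios were compared by exact two-sided permutation of libraries, with 0.5 added to each count. Promoters came from a RefSeq table, and gene neighbours from the protein-coding genes of the same GENCODE annotation. Intervals and floors of 3 counts cover counting error only.

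Values are given for every collagen called, every collagen averaging at least 100 CPM and trimer partners of these, and from each pathway list for up to 3 called genes with the smallest adjusted p. Further genes were picked for naming with their values in view. The members, lists and alternatives were chosen with earlier results of these data known. Alternatives were other scalings, DESeq2 1.42.0, a fit with no filter and another with a filter at CPM of 1 in 6 libraries, a replicate block, fits that left out libraries, and counts summed over the 4 sets. The scripts were tested on simulated data.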

Additional observations from a re-analysis of the deposited data

Results flagged for a closer look

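Control 6 stood apart from the other 5 control libraries in 27 of the 76 groups of 6 libraries that were checked for a distant value. No other library was flagged. The check weighs the gap between the extreme value and its nearest neighbour. Knockout 5 and 6 were alike, so it could hardly flag either of them. Chance alone flags about 1 in 20 independent groups, but these groups share libraries and are not independent. It lay far above the other controls for 18 chains: Col1a1 at 13267 CPM, Col4a1 at 4566, Col4a2 at 3544, Col5a1 at 2814, Col6a3 at 825, Col12a1 at 455, Col6a1 at 387, Col16a1 at 365.04, Col11a1 at 295, Col4a5 at 248, Col8a1 at 239.8, Col5a3 at 72.4, Col7a1 at 30.9, Col24a1 at 26.5, Col11a2 at 9.67, Col28a1 at 9.35, Col27a1 at 8.33 and Col20a1 at 2.54. It lay far below them for 3, with Col15a1 at 74.2 CPM, Col18a1 at 65.2 and Col14a1 at 6.11.

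The same library lay far above the other controls in the ratio of Col1a1 to Col1a2 (1.52), Col1a1 to Col3a1 (3.96), Col5a1 to Col5a2 (0.634), Col6a1 to Col6a2 (2.11) and Col8a1 to Col8a2 (127.8), and in the share of counts from collagens (4.20%).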

How the results depend on the processing

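The 6 collagens that fell and Col10a1 were called in every fit of 11 libraries, under each scaling, filter and test, with the replicate block and without knockout 5 and 6, but not when counts were summed over the 4 sets (2 against 2, adjusted p = 0.613 for each). That fit called 0 collagens, 0 pathway genes and 0 genes in all, in either direction, with 438 genes higher and 609 lower, 2 and 5 of them collagens, at an unadjusted p under 0.05. Collagens that rose numbered 7 with DESeq2, 5 with no filter (Col2a1 and Col19a1 were added in both), 12 without knockout 5 and 6, 16 without control 6 as well, and 1 to 9 with 1 library left out: 1 without knockout 1, 2 or 4 or any of control 1 to 5, 5 without knockout 5 or 6, and 9 without control 6. Pathway genes that rose numbered 18 without knockout 5 and 6, 34 without control 6 as well, and 7 to 14 with 1 library left out, with 14 without control 6. Without those 3 libraries 4319 genes rose and 4508 fell. Scaling by library totals alone gave 2138 higher and 3004 lower genes and a median of -0.04.

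Signs turned for chains that were not called over the 12 libraries. With the replicate block this was Col11a2 (0.035), and without knockout 5 and 6 it was Col1a1 (0.24). Without control 6 as well, Col1a1 (0.37) was called higher (edgeR adjusted p = 5.87e-07). Col11a1 (0.11), Col11a2 (0.21) and Col24a1 (0.14) turned in that fit without a call. With set sums, the chains were Col27a1 (-0.46), Col5a3 (-0.40), Col5a1 (-0.39), Col4a2 (-0.31), Col8a1 (-0.23), Col7a1 (-0.19), Col4a5 (-0.090) and Col4a1 (-0.071). With 1 library left out, Col11a2 ran from -0.12 to 0.23, at 0.00091 without knockout 4 and 0.23 without control 6, and Col5a3 ran from -0.012 to 0.32, at -0.0072, -0.012 and -6.6e-05 without control 2, 3 and 5. The Col15a1 to Col18a1 log2 ratio difference was -0.86 without knockout 5 and 6 (adjusted p = 0.0109), -0.91 without control 6 as well (adjusted p = 0.0159), and -0.46 to 0.0081 with 1 library left out, turning sign without knockout 3 (0.0081) and knockout 4 (0.0026).

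Same-numbered libraries did not deviate together (correlations -0.36 to 0.18). The deviations largely follow the 4 sets, and control 6 was the best match of each of knockout 1 to 4. The check therefore cannot settle whether the replicate numbers mark a pairing. With the replicate block Col12a1 was no longer called (1.21, adjusted p = 0.102). For the ratios, the replicate block cannot change the log2 differences, since the mean of the paired differences equals the difference of the means. Only the p can change, here from the sign-flip test (smallest p 0.0312). Its adjusted exact p was 0.05 for Col1a1/Col1a2, Col1a1/Col3a1, Col4a1/Col4a2, Col6a1/Col6a3 and Col8a1/Col8a2 (differences 0.57, 1.28, 0.27, -1.60 and 1.26). For Col5a1/Col5a2 and Col6a1/Col6a2 (0.69 and 0.55) it was 0.107. The cause of these changes was not tested. Chains with under 100 counts a library are limited by depth.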
